A study of Homo sapiens with 12 samples.

Results

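The genes described here act on the decision of a cell to leave G1, the phase of the cell cycle before DNA replication. They are 10 genes chosen by name: the kinase inhibitors CDKN1A, CDKN1B and CDKN2B, the cyclins CCND1 and CCND3, the kinases CDK4 and CDK6, and the transcription factors MYC, MXD1 and E2F1. All 10 were found by symbol among the 16271 genes of the deposited table, and all 10 were among the 14676 genes that passed the filter on low counts. Total RNA was sequenced from HaCaT cells, human skin keratinocytes of an immortalised line, grown as plated cultures in medium with serum. The 4 groups, with 3 libraries each, were VDR knockout cells given 1,25(OH)2D3 for 8 h, untreated VDR knockout cells, wild type cells given 1,25(OH)2D3 for 8 h, and untreated wild type cells. VDR encodes the nuclear receptor of vitamin D, and 1,25(OH)2D3 is the active hormone that binds it. No source used here gives the hormone's dose, the vehicle, how VDR was edited or how many clones were used, so a difference between the genotypes cannot be told apart from a difference between clones.

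Cyclins of the D type, such as CCND1 and CCND3, bind and activate the kinases CDK4 and CDK6, which phosphorylate the retinoblastoma protein RB and so release the E2F transcription factors that switch on genes of DNA replication. The inhibitors of the CIP/KIP family, p21 (CDKN1A) and p27 (CDKN1B), bind complexes of cyclins and kinases, whereas p15 (CDKN2B), of the INK4 family, binds CDK4 and CDK6 and keeps cyclin D off them. MYC pairs with MAX on DNA and drives growth and cell cycle entry, and MXD1 competes for MAX as a repressor known from differentiating cells. The vitamin D hormone is known to slow the growth of keratinocytes and to favour their differentiation, and these genes are among those usually examined in that setting.

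Library totals lay between 11485031 and 15992792 counts. CYP24A1, a textbook VDR target whose product degrades 1,25(OH)2D3, had 12.2 ± 0.232 CPM with hormone and 16.9 ± 4.83 CPM without it in VDR knockout cells, and 1676 ± 61.0 CPM with hormone and 48.0 ± 2.88 CPM without it in wild type cells (CPM, a gene's share of its library's counts on a fixed scale, here adjusted by TMM factors, SD, n = 3 each). VDR RNA itself was counted in all libraries. It had 82.8 ± 3.02 CPM with hormone and 77.6 ± 4.07 CPM without it in VDR knockout cells, against 70.9 ± 3.61 CPM with hormone and 103.3 ± 3.81 CPM without it in wild type cells. RNA counts do not show whether receptor protein was present. The summed level of 8 keratinocyte markers was 1039 to 1127 CPM in treated and 1208 to 1239 CPM in untreated VDR knockout libraries, against 3102 to 3220 CPM in treated and 3127 to 3808 CPM in untreated wild type libraries, so keratinocyte genes were present in all libraries and lower in the knockout ones. Of 11 markers of immune, endothelial, fibroblast and melanocyte cells, 4 were measured (CD68, CDH5, COL1A1 and PMEL), with a summed level of 10.4 to 15.5 CPM in VDR knockout libraries and 15.99 to 32.7 CPM in wild type libraries. The other 7 were not found among the genes of the deposited table. Replicate 3 of the untreated wild type cells was the lowest or the highest library of its group for all 10 genes. In bulk RNA, fewer cells of a type and less RNA per cell cannot be told apart.

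On GRCh38, in GENCODE v29, the gene CDKN1A lies at chr6:36676460-36687339 (plus strand), CDKN1B at chr12:12715058-12722371 (plus) and CDKN2B at chr9:22002903-22009363 (minus). CCND1 lies at chr11:69641087-69654474 (plus), CCND3 at chr6:41934933-42050357 (minus), CDK4 at chr12:57747727-57756013 (minus) and CDK6 at chr7:92604921-92836594 (minus). MXD1 lies at chr2:69897688-69942945 (plus) and E2F1 at chr20:33675683-33686404 (minus). Of the exon bases of CDK4, 1369 (43.2%) are shared with exons of TSPAN31 on the opposite strand, and of those of CCND1, 497 (10.3%) are shared with LTO1. CDK6 shares 81 exon bases (0.7%) with AC002454.1 on the opposite strand. No source used here says whether counting used strand, so reads from such shared stretches cannot be assigned to a gene with certainty. MXD1 shares 237 exon bases (3.7%) with SNRNP27 on the same strand, where strand would not tell the reads apart.

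Promoter windows from RefSeq (GRCh38.p14) were matched for 8 of the 10 genes, all but CCND1 and MYC, whose promoters were thus not searched. There were 11 windows in all, each from 250 bases before to 50 after an annotated start. They were searched on both strands for the E-box CACGTG, the letters bound by pairs of MYC or MXD1 with MAX, for the E2F site in the forms TTTGGCGC, TTTCGCGC, TTTCCCGC and TTTGCCGC, and for the vitamin D response element of the DR3 type, as the unit AGGTCA repeated once after a gap of 3 bases, and likewise for the unit GGTTCA and for the unit AGTTCA. No match overlaps another in the windows shown. An E-box was present in a window of CDK4 and in a window of CDK6, against 7.26% of all 35116 windows. An E2F site was present in the window of E2F1, against 3.31% of all windows. The DR3 letters were in none of the 11 windows, against 0.0114% of all windows. As only 4 of the 35116 windows held them, their absence from 11 does not set these genes apart from others. Repeats of unlike units and sites outside the windows were not searched. The 3 windows that hold a match are shown because MYC, MXD1 and E2F1 are themselves among the genes measured, and they are printed 5′ to 3′ on the strand of the gene, with matches in capitals.
CDK4, chr12:57752261-57752560, minus strand: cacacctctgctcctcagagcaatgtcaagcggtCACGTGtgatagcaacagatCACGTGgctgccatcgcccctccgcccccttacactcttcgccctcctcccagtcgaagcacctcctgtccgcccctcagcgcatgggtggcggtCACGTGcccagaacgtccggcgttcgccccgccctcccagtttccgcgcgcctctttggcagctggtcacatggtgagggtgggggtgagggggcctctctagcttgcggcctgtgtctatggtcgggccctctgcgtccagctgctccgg
CDK6, chr7:92836524-92836823, minus strand: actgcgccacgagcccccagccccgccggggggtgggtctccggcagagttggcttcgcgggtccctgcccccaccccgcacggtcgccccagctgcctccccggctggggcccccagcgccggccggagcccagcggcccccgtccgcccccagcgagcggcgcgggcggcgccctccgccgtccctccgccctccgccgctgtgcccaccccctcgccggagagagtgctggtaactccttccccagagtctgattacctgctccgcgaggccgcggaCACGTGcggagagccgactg
E2F1, chr20:33686336-33686635, minus strand: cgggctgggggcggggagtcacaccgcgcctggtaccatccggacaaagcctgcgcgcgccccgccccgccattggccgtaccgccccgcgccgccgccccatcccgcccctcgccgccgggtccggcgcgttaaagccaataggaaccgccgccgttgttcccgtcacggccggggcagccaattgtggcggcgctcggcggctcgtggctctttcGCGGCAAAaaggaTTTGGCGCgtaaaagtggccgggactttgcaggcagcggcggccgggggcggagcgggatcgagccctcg
The E-boxes of CDK4 begin 216, 196 and 101 bases before the start, the E-box of CDK6 begins 30 bases after it, and the E2F sites of E2F1 begin 33 and 20 bases before it. These matches describe letters in a window and do not show binding.

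Levels of different genes were set side by side per kilobase of exon. In treated VDR knockout cells E2F1 (29.4 CPM per kb of exon), CDK6 (23.7), CDK4 (23.7) and CCND1 (21.4) were highest, whereas in treated wild type cells CCND1 (57.7), E2F1 (42.5), MYC (32.6) and CDKN1A (32.5) were. In untreated knockout cells E2F1 (31.8), CDKN1A (31.8), CDK4 (27.2) and CCND1 (25.7) were highest, and in untreated wild type cells CCND1 (68.7), CDKN1A (43.6), MYC (38.9) and E2F1 (32.7) were. CCND1 thus led in the wild type groups and not in the knockout groups, while the place of CDKN1A also moved with hormone. CDKN2B was among the lowest throughout, at 4.33 CPM per kb with hormone and 5.96 without it in knockout cells, and 3.66 with hormone and 3.93 without it in wild type cells. Of the D-type cyclins, CCND1 was thus well above CCND3 in all 4 groups on this scale. The inhibitors p27 and p15 were both far below p21 on it.

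**Figure D1:**
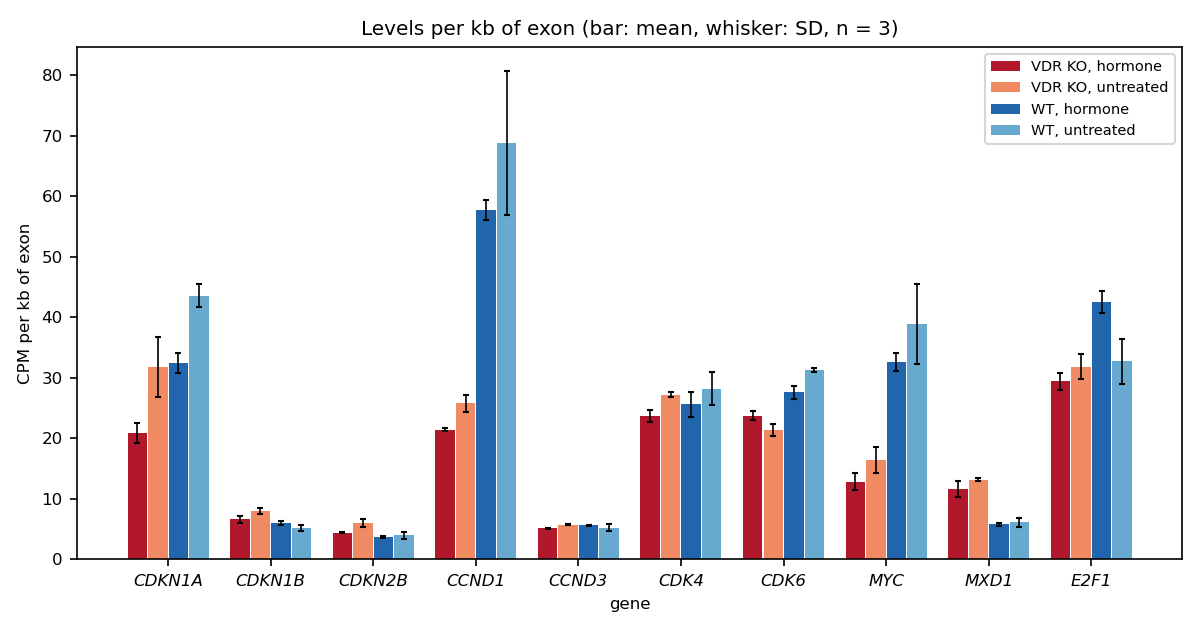
Mean levels of the 10 genes in CPM per kb of exon, with bars for the groups in the order VDR KO with hormone, VDR KO untreated, WT with hormone and WT untreated, and whiskers for the SD (n = 3). CCND1 and MYC stand far lower in the knockout bars, at 21.4 and 12.8 CPM per kb with hormone against 57.7 and 32.6 in treated wild type cells, and MXD1 stands higher in them.

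The counts of genes that passed the test (adjusted p below 0.05, edgeR quasi-likelihood with Benjamini-Hochberg adjustment over all genes tested) are set beside the share of all genes that passed it. In treated against untreated VDR knockout cells, 0 of the 10 rose and 2 fell, CDKN1A and CDKN2B, where 2.55% of all genes passed (0.913% rose and 1.64% fell). In treated against untreated wild type cells 1 rose, E2F1, and 1 fell, CDKN1A, where 24.5% of all genes passed (11.5% rose and 13.0% fell), so the count among the 10 was near that background. In VDR knockout against wild type cells, both treated, 1 was higher and 5 were lower, where 75.9% of all genes passed (38.4% higher and 37.4% lower). In VDR knockout against wild type cells, both untreated, 3 were higher and 4 were lower, where 69.7% of all genes passed (35.5% higher and 34.2% lower). Most genes of the table thus differed between the genotypes, and the share of the 10 that did was near that background. The response itself differed between the genotypes for 3 of the 10, with 1 higher and 2 lower values in knockout cells, where 26.3% of all genes differed in response (13.8% higher and 12.5% lower). By the ranges of the libraries alone, treated and untreated libraries did not overlap for 8 of the 10 in VDR knockout cells (31.6% of all genes) and for 4 of the 10 in wild type cells (39.2%). Knockout and wild type libraries did not overlap for 8 of the 10 with hormone (80.9% of all genes) and for 8 of the 10 without it (69.1%). These comparisons share libraries, so they are not independent of one another. The median log2 fold change of the 10 was -0.23 with hormone in VDR knockout cells and -0.12 in wild type cells, against -0.00447 and -0.00498 over all genes tested.

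**Figure D2:**
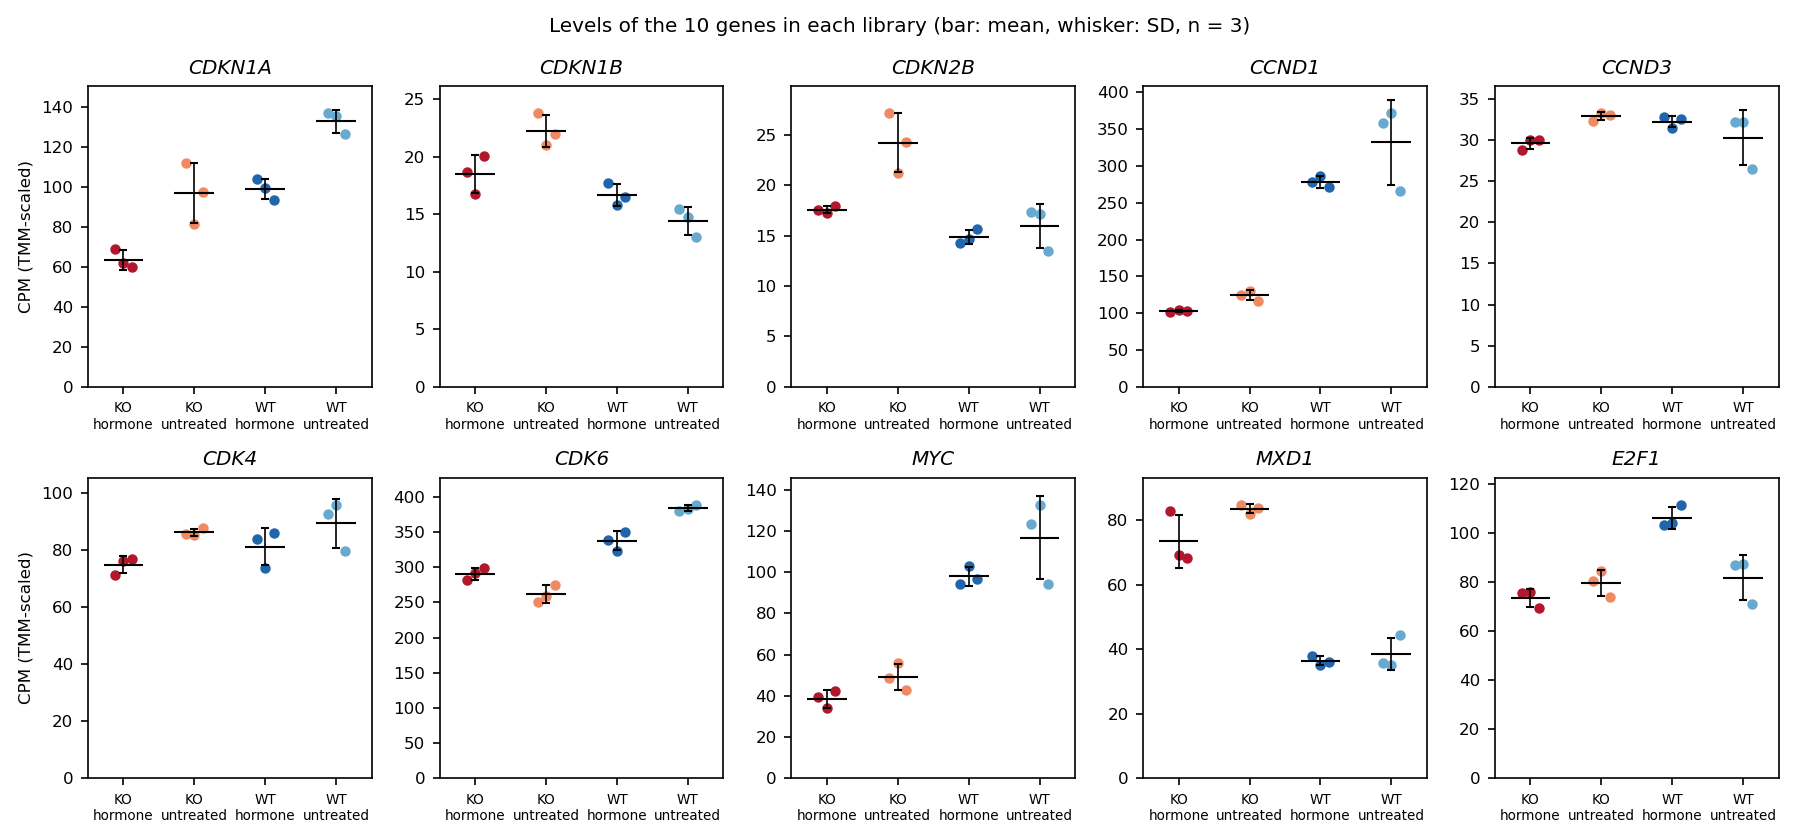
Levels of each of the 10 genes in each library in TMM-scaled CPM, with the groups from left to right VDR KO with hormone, VDR KO untreated, WT with hormone and WT untreated, points for libraries, and bars and whiskers for mean and SD (n = 3). CCND1, CDK6 and MYC sit lower in the knockout groups and MXD1 higher, and CDKN1A is lower in treated than in untreated libraries of both genotypes.

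CDKN1A encodes p21, a brake that is switched on by p53 and by several differentiation signals. In VDR knockout cells its level was 69.1, 61.8 and 59.8 CPM with hormone, against 112, 81.7 and 97.3 CPM untreated. In wild type cells it was 104, 99.2 and 93.7 CPM with hormone, against 137, 136 and 126 CPM untreated. All treated libraries were below all untreated libraries of their genotype, and the treated knockout libraries were the lowest of the 12. CDKN1A fell with hormone by 0.61 ± 0.10 on the log2 scale in VDR knockout cells (SE, adjusted p = 0.00759, edgeR), to 63.6 ± 4.92 CPM against 97.0 ± 15.2 CPM (SD, n = 3 each). It fell with hormone by 0.42 ± 0.10 in wild type cells (adjusted p = 0.00421, edgeR), to 99.0 ± 5.18 CPM against 132.9 ± 5.74 CPM. The difference of these responses did not pass the test (log2 -0.19, approximate 95% interval -0.45 to 0.08, adjusted p = 0.336, edgeR). Against wild type, knockout cells had less CDKN1A both with hormone, by 0.64 ± 0.10 on the log2 scale (adjusted p = 1.34e-05, edgeR), and without it, by 0.45 ± 0.10 (adjusted p = 0.000437). The call in treated knockout cells was lost without untreated replicate 1 (log2 -0.49, adjusted p = 0.0552) and without treated replicate 2 (log2 -0.59, adjusted p = 0.0717). In treated wild type cells CDKN1A was called under each of the 15 other settings and libraries left out.

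The brake p27, encoded by CDKN1B, is known to be controlled mostly through the stability of its protein. CDKN1B had 18.7, 16.7 and 20.0 CPM in treated VDR knockout cells, against 23.8, 21.0 and 22.0 CPM in untreated ones. It had 17.7, 15.8 and 16.5 CPM in treated wild type cells, against 15.4, 14.8 and 13.0 CPM in untreated ones. The treated libraries lay below the untreated ones in the knockout and above them in the wild type, with no overlap in either genotype. Neither response passed the test on its own (log2 -0.27 ± 0.10 SE in knockout cells with adjusted p = 0.147, and 0.21 ± 0.11 in wild type cells with adjusted p = 0.16, edgeR). The difference of the responses passed it, at a log2 difference of -0.48 ± 0.15 (adjusted p = 0.0246, edgeR), and was called under 17 of 20 alternatives. It was not called without treated wild type replicate 1 (adjusted p = 0.0637), untreated knockout replicate 1 (0.0704) or treated knockout replicate 2 (0.0719). CDKN1B was 1.54-fold higher in untreated knockout cells than in untreated wild type cells (log2 0.63 ± 0.10 SE, adjusted p = 4.83e-05, edgeR). With hormone the genotypes did not differ past the threshold, at 18.5 ± 1.65 CPM in knockout and 16.7 ± 0.963 CPM in wild type cells (log2 0.15, approximate 95% interval -0.06 to 0.35), although CDKN1B was called higher in knockout cells there with library size alone as the scaling (log2 0.25, adjusted p = 0.0327) and in limma (0.24 with either pseudocount).

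CDKN2B encodes p15, an inhibitor known as a target of TGF-beta that MYC represses. It had 17.5, 17.2 and 17.9 CPM in treated VDR knockout cells, against 27.1, 21.2 and 24.3 CPM in untreated ones. In wild type cells it had 14.3, 14.7 and 15.6 CPM with hormone, against 17.3, 17.1 and 13.4 CPM untreated. Untreated knockout libraries stood above all other libraries, and the other 3 groups lay close together. CDKN2B fell with hormone by 0.46 ± 0.11 on the log2 scale in knockout cells (SE, adjusted p = 0.044, edgeR). Its log2 fold change in wild type cells was -0.10 ± 0.12 (adjusted p = 0.567, edgeR), and the difference of the responses did not pass the test (log2 -0.36, approximate 95% interval -0.68 to -0.04, adjusted p = 0.112). It was 1.52-fold higher in untreated knockout than in untreated wild type cells (log2 0.60 ± 0.11 SE, adjusted p = 0.000169, edgeR). With hormone the genotypes did not differ past the threshold (log2 0.24 ± 0.12, adjusted p = 0.0692, edgeR), although CDKN2B was called higher in knockout cells there with library size alone (log2 0.35, adjusted p = 0.00925), in limma (0.33 and 0.34) and in the compared groups alone (0.24, adjusted p = 0.034). The fall in knockout cells was lost when any of 5 libraries of the comparison was left out, all but untreated replicate 2, with adjusted p from 0.0921 to 0.21, and with the replicate number as a block (adjusted p = 0.0717).

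Among 4 other tested inhibitor genes, 0 passed the test in either hormone response, and 3 were higher in knockout cells of either treatment. These 3 were CDKN2C, which encodes the INK4 inhibitor p18 (log2 1.54 ± 0.23 SE with hormone and 1.78 ± 0.24 without it), CDKN3, a phosphatase that acts on cyclin-dependent kinases (0.85 ± 0.07 and 0.61 ± 0.07), and CDKN2A, the gene of p16 and ARF (0.37 ± 0.09 and 0.46 ± 0.09). The median log2 fold change of the 4 was 0.61 with hormone and 0.53 without it. CDKN1A was thus lower in the knockout cells while CDKN1B and CDKN2B, without hormone, and these 3 genes were higher. Between the genotypes 75.9% of all genes passed the test with hormone and 69.7% without it. With hormone against untreated, 2.55% of all genes passed in knockout cells and 24.5% in wild type cells. These shares are the background for these counts and for those of the gene lists that follow.

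CCND1 encodes cyclin D1, the cyclin that growth factor signals raise in G1. Its level was 102, 104 and 104 CPM in treated VDR knockout cells, against 125, 131 and 117 CPM in untreated ones. In wild type cells it was 278, 287 and 271 CPM with hormone, against 359, 372 and 266 CPM untreated. All knockout libraries were below all wild type libraries, and untreated wild type replicate 3 lay below every treated wild type library. CCND1 was 2.69-fold lower in knockout than in wild type cells with hormone (log2 -1.43 ± 0.10 SE, adjusted p = 1.39e-09, edgeR) and 2.67-fold lower without it (log2 -1.42 ± 0.10, adjusted p = 2.46e-09). Its log2 change with hormone was -0.27 ± 0.10 in knockout cells (adjusted p = 0.139, edgeR) and -0.25 ± 0.10 in wild type cells (adjusted p = 0.068), so neither passed the test. Without untreated wild type replicate 3 the wild type value was -0.38 with adjusted p = 0.000176. In a fit of the compared groups alone the knockout value was -0.26 with adjusted p = 0.0175 (edgeR). The responses of the genotypes were close to each other, with a difference of log2 -0.01 and an approximate 95% interval of -0.28 to 0.26.

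CCND3, the gene of cyclin D3, had 28.8 to 30.01 CPM in treated and 32.3 to 33.2 CPM in untreated VDR knockout libraries, and 31.4 to 32.8 CPM in treated and 26.4 to 32.2 CPM in untreated wild type libraries. It passed the test in none of the 5 comparisons, in which its log2 values ranged from -0.24 for the difference of the responses to 0.12 for the untreated genotypes, although it was called higher in untreated knockout cells with library size alone as the scaling (log2 0.24, adjusted p = 0.015). Among 9 other cyclins and kinases of G1, CCND2, which encodes cyclin D2, was lower in knockout cells (log2 -0.86 ± 0.09 SE with hormone, -0.95 ± 0.09 without it), as was CCND1. Against that, 5 of the 9 were higher in knockout cells with hormone and 5 without it. Without hormone these 5 included CCNA2, the gene of cyclin A2 (0.75 ± 0.09), CCNE2, the gene of cyclin E2 (0.60 ± 0.10) and CDK2, their kinase partner (0.38 ± 0.08). With hormone they included CDK7 (1.35 ± 0.11), MNAT1 (0.85 ± 0.11) and CCNH (0.75 ± 0.11), which encode the kinase complex that activates other cyclin-dependent kinases. The median of the 9 was 0.40 with hormone and 0.36 without it. Of the 9, 66.7% passed the test with hormone and 66.7% without it, near the 75.9% and 69.7% of all genes. In treated wild type cells CDK2 rose (0.24 ± 0.08) and CDK7 (-0.63 ± 0.11) and CCNH (-0.52 ± 0.11) fell. CDK7 and CCNH were called in all 15 alternatives and CDK2 in 9, its call being lost when untreated replicate 3 or any of the treated libraries was left out. In treated knockout cells 0 of the 9 passed the main test, and over 15 alternatives 0 to 3 rose and 0 fell.

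CDK4, a kinase partner of the D cyclins, is the member that shares the most exon bases with a neighbour. It had 71.4, 76.3 and 77.0 CPM in treated VDR knockout cells, against 85.6, 85.4 and 87.6 CPM in untreated ones. It had 83.7, 73.7 and 86.0 CPM in treated wild type cells, against 92.6, 95.9 and 79.6 CPM in untreated ones. The wild type groups overlapped, and the treated knockout libraries were below the untreated ones. CDK4 passed the test in none of the 5 comparisons (log2 -0.20 with hormone in knockout cells, approximate 95% interval -0.36 to -0.05, adjusted p = 0.158, edgeR). With hormone in wild type cells it was called lower when untreated replicate 3 was left out (log2 -0.21, adjusted p = 0.038). In knockout cells it was called lower with hormone in a fit of the compared groups alone (log2 -0.20, adjusted p = 0.0376, edgeR).

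CDK6, the other partner of the D cyclins, had 282, 291 and 299 CPM in treated VDR knockout cells, against 251, 259 and 275 CPM in untreated ones. In wild type cells it had 339, 323 and 351 CPM with hormone, against 380, 383 and 389 CPM untreated. Treated libraries were above untreated ones in the knockout and below them in the wild type, with no overlap. Neither response passed the test on its own (log2 0.15 ± 0.07 SE, adjusted p = 0.208 in knockout cells, and log2 -0.18 ± 0.07, adjusted p = 0.0562 in wild type cells, edgeR), and DESeq2 called the wild type one (adjusted p = 0.0108). The difference of the responses passed it (log2 0.34 ± 0.10, adjusted p = 0.0165, edgeR), in 18 of 20 alternatives, and was lost without treated wild type replicate 2 (adjusted p = 0.052) or untreated knockout replicate 1 (0.0505). CDK6 was 1.47-fold lower in untreated knockout than in untreated wild type cells (log2 -0.55 ± 0.07, adjusted p = 1.69e-06, edgeR). With hormone it was 1.16-fold lower in knockout cells (log2 -0.22 ± 0.07, adjusted p = 0.00816), a call that was lost with library size alone as the scaling (log2 -0.11, adjusted p = 0.162) and in limma on the unscaled CPM (log2 -0.11, adjusted p = 0.152 with a pseudocount of 1).

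**Figure D3:**
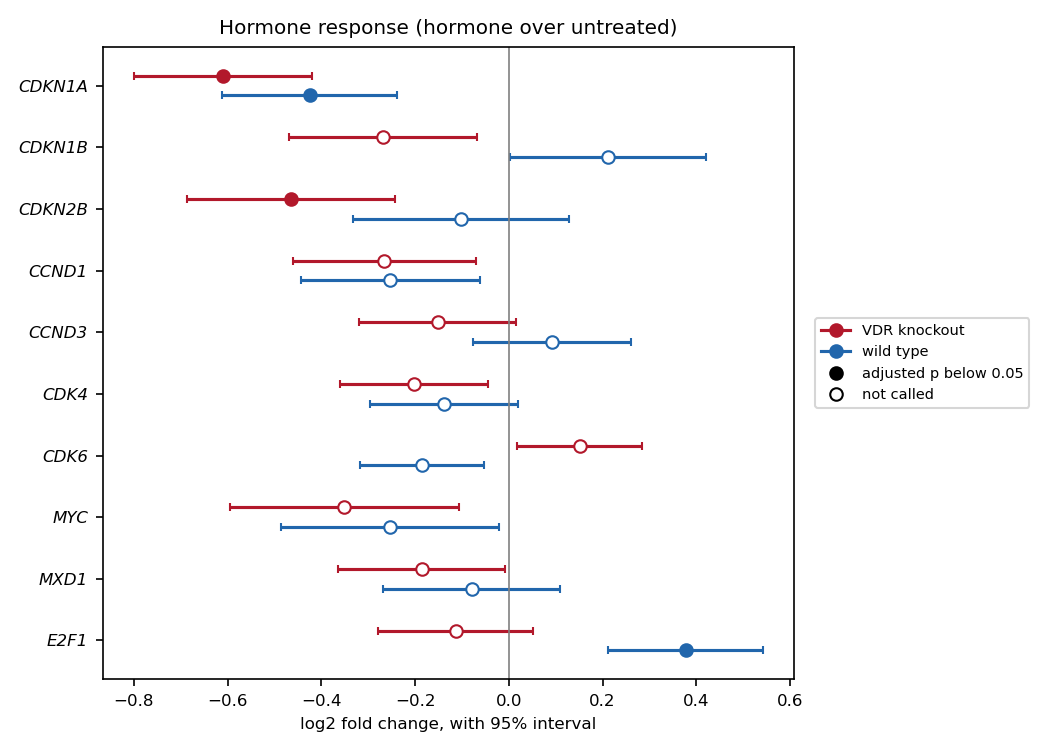
Log2 fold changes of the 10 genes with hormone against untreated, with VDR knockout cells above wild type cells for each gene, lines for approximate 95% intervals not adjusted for the number of genes, and filled points for adjusted p below 0.05. CDKN1A falls in both genotypes, CDKN2B passes the test in knockout cells, E2F1 passes it in wild type cells, and CDKN1B and CDK6 lie on opposite sides of 0 in the genotypes.

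MYC encodes the transcription factor that drives growth and represses several cell cycle inhibitors, and lies at chr8:127735434-127741434 (plus strand). Its level was 39.3, 34.0 and 42.1 CPM in treated VDR knockout cells, against 48.6, 55.8 and 43.0 CPM in untreated ones. It was 94.2, 103 and 96.7 CPM in treated wild type cells, against 123, 133 and 94.4 CPM in untreated ones. The knockout libraries were all below the wild type ones, and the treated and untreated wild type libraries overlapped through replicate 3 of the untreated group. MYC was 2.55-fold lower in knockout than in wild type cells with hormone (log2 -1.35 ± 0.12 SE, adjusted p = 9.24e-08, edgeR) and 2.38-fold lower without it (log2 -1.25 ± 0.12, adjusted p = 2.63e-07). With hormone its log2 change was -0.35 ± 0.12 in knockout cells (adjusted p = 0.127, edgeR) and -0.25 ± 0.12 in wild type cells (adjusted p = 0.136). Without untreated wild type replicate 3 the wild type value was -0.38 with adjusted p = 0.00901. In a fit of the compared groups alone the knockout value was -0.35 with adjusted p = 0.041 (edgeR).

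MXD1, which encodes a partner of MAX that opposes MYC, went the other way between the genotypes. It had 82.8, 69.3 and 68.2 CPM in treated VDR knockout cells, against 84.8, 82.0 and 83.9 CPM in untreated ones. It had 38.0, 35.3 and 36.0 CPM in treated wild type cells, against 35.9, 35.3 and 44.3 CPM in untreated ones. The highest wild type library was thus below the lowest knockout library. MXD1 was 2.02-fold higher in knockout cells with hormone (log2 1.01 ± 0.09 SE, adjusted p = 4.29e-08, edgeR) and 2.17-fold higher without it (log2 1.12 ± 0.09, adjusted p = 1.98e-08). Its response to hormone did not pass the test in either genotype (log2 -0.19 ± 0.09 in knockout cells, adjusted p = 0.248, and -0.08 ± 0.10 in wild type cells, adjusted p = 0.589). MYC and MXD1 kept these genotype differences under each alternative setting and with each library left out.

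Of 9 other tested members of the MYC network, 2 were higher and 4 lower in knockout cells with hormone (median 0.04), and 1 was higher and 3 were lower without it (median -0.03). MXD3, another MAX partner of the MXD family, was higher, as was MXD1, in knockout cells (log2 1.18 ± 0.13 SE with hormone, 1.44 ± 0.13 without it), while MXD4 (-1.36 ± 0.31 and -1.24 ± 0.31) and MLX (-0.40 ± 0.08 and -0.66 ± 0.08) were lower. MAX itself, the shared partner, was lower in untreated knockout cells (-0.49 ± 0.07, adjusted p = 7.1e-06, edgeR), and with hormone its value was 0.04 ± 0.07. MAX fell with hormone in wild type cells, by 0.34 ± 0.07 on the log2 scale (adjusted p = 0.00215, edgeR). Of 18 textbook MYC targets, 1 was higher and 13 were lower in treated knockout cells, and 2 were higher and 12 lower in untreated ones, with a median log2 fold change of -0.66 with hormone and -0.47 without it, against 0.02 and 0.01 over all genes. The lower ones with the smallest adjusted p without hormone were DKC1, of the pseudouridine synthase complex (-0.97 ± 0.08), BOP1, of ribosome assembly (-2.21 ± 0.16) and CAD, of pyrimidine synthesis (-0.71 ± 0.08), and EIF4E, the cap-binding translation factor, was higher (1.03 ± 0.11). With hormone 0 MYC targets were called in knockout cells in the main test, and over 15 alternatives 0 to 1 rose and 0 to 2 fell. With hormone in wild type cells 2 rose, CAD (0.35 ± 0.08) and TFRC (0.25 ± 0.08), and 1 fell, NME1 (-0.30 ± 0.09). CAD was called in all 15 alternatives, NME1 in 12 and TFRC in 10.

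E2F1 encodes an activating E2F factor that is itself an E2F target. It had 75.4, 76.0 and 69.4 CPM in treated VDR knockout cells, against 80.4, 84.4 and 74.1 CPM in untreated ones. It had 103, 104 and 111 CPM in treated wild type cells, against 87.1, 87.3 and 71.2 CPM in untreated ones. The treated wild type libraries stood above the other 9, which overlapped across groups. E2F1 rose with hormone in wild type cells, to 106.3 ± 4.52 CPM against 81.8 ± 9.20 CPM (log2 0.38 ± 0.08 SE, adjusted p = 0.00405, edgeR). In knockout cells its log2 change was -0.11 ± 0.08 (adjusted p = 0.455, edgeR). The difference of the responses was log2 -0.49 ± 0.12 (adjusted p = 0.00662, edgeR) and was called in 20 of 20 alternatives. E2F1 was 1.44-fold lower in knockout than in wild type cells with hormone (log2 -0.53 ± 0.08, adjusted p = 2.11e-05, edgeR), and without hormone its value was -0.04 ± 0.08 (adjusted p = 0.687).

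Of 16 textbook E2F targets, 1 rose and 7 fell in treated wild type cells, where E2F1 rose (median log2 fold change -0.18, against -0.00498 over all genes). These were 50% of the 16, where 24.5% of all genes passed the test (11.5% rose and 13.0% fell). The 1 that rose was MCM7, a subunit of the replicative helicase (log2 0.28 ± 0.07 SE). Among those that fell were POLA1, of DNA polymerase alpha (-0.42 ± 0.08), TK1, thymidine kinase (-0.32 ± 0.08), and MCM5, of the helicase (-0.30 ± 0.08). POLA1 and MCM7 were called in all 15 alternatives, MCM5 in 14 and TK1 in 13. Without untreated wild type replicate 3, 2 rose and 5 fell, and the number that fell was 1 to 7 over 15 alternatives. In treated knockout cells 0 of the 16 rose and 3 fell, PCNA, the sliding clamp (-0.41 ± 0.10), TYMS, thymidylate synthase (-0.29 ± 0.07) and MCM7 (-0.27 ± 0.07), with adjusted p of 0.046 to 0.0482 (edgeR), and each call was lost when any 1 library of that comparison was left out. Between the genotypes, 10 of the 16 were higher and 4 lower in knockout cells with hormone, and 9 higher and 4 lower without it (median 0.29 in both), with RRM1, of ribonucleotide reductase, among the higher ones (0.95 ± 0.08 and 0.79 ± 0.08) and CDT1, a replication licensing factor, among the lower ones (-0.83 ± 0.10 and -0.77 ± 0.10).

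E2F2, another activating E2F, was higher in knockout cells (log2 1.46 ± 0.09 SE with hormone and 1.82 ± 0.09 without it), as was E2F8, a repressive E2F (1.98 ± 0.10 and 1.77 ± 0.10), and LIN54 (1.04 ± 0.07 and 0.87 ± 0.07) and LIN52 (1.36 ± 0.11 and 1.01 ± 0.11), parts of the DREAM complex. Of the 16 genes of the RB and E2F families and their partners, 9 were higher and 4 lower in knockout cells with hormone, and 6 were higher and 3 lower without it (medians 0.54 and 0.10). In treated wild type cells 0 rose and 3 fell, LIN9, of the DREAM complex (-0.48 ± 0.10), RB1 (-0.35 ± 0.11) and TFDP2 (-0.42 ± 0.14), of which only LIN9 was called in all 15 alternatives. Without untreated wild type replicate 3, 2 of the 16 rose and 1 fell. In treated knockout cells 0 of the 16 passed the main test, and over 15 alternatives 0 to 4 rose and 0 to 1 fell.

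**Figure D4:**
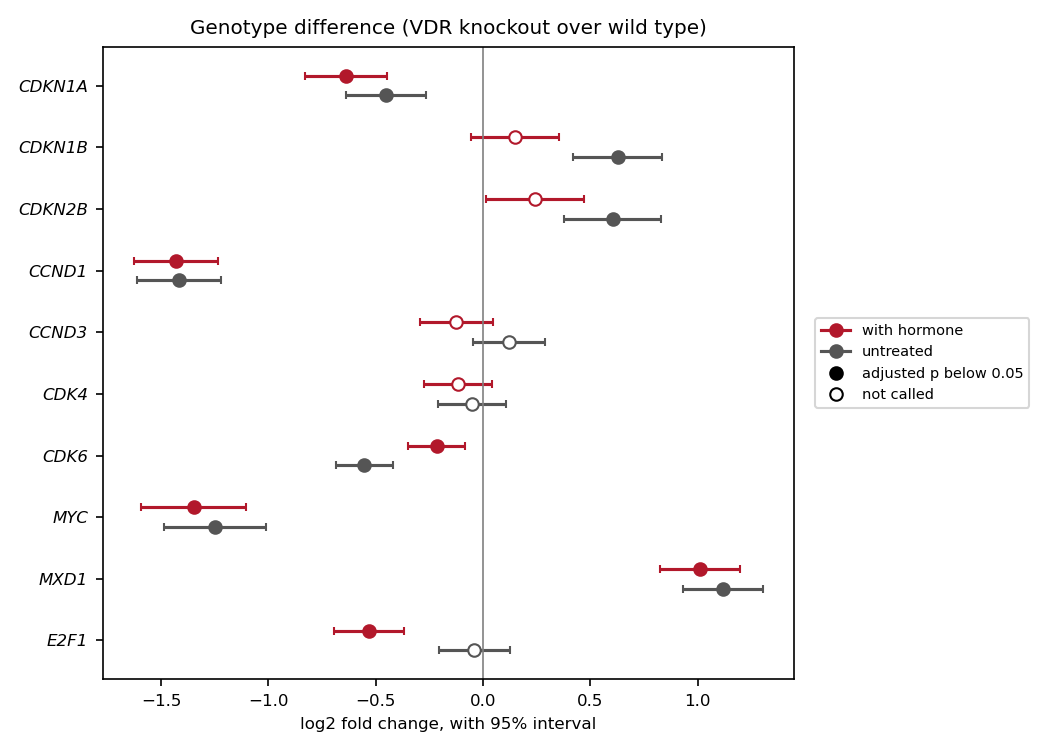
Log2 fold changes of the 10 genes in VDR knockout over wild type cells, with treated cells above untreated cells for each gene, lines for approximate 95% intervals not adjusted for the number of genes, and filled points for adjusted p below 0.05. CCND1 (-1.43 with hormone, -1.42 without it) and MYC (-1.35 and -1.25) lie far left of 0 and MXD1 (1.01 and 1.12) far right, CDKN1B and CDKN2B pass the test without hormone, and E2F1 passes it with hormone.

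Genes known to act on the inhibitors were followed from lists of their own. Of 17 tested p53 targets other than CDKN1A, 0 rose and 1 fell in treated knockout cells, TP53INP1 (log2 -0.98 ± 0.24 SE, adjusted p = 0.0455, edgeR). This call was lost with the replicate block and when any of 5 of the 6 libraries was left out, all but untreated replicate 2. Of the same genes, 0 passed the test in treated wild type cells, where CDKN1A fell. Between the genotypes 7 were higher and 7 lower in knockout cells with hormone, and 6 higher and 3 lower without it (medians -0.00139 and 0.20). MDM2, the textbook p53 target named here after its values were seen, had log2 changes of 0.11 ± 0.08 in treated knockout and 0.14 ± 0.08 in treated wild type cells. Over the 17 genes the median log2 change was -0.18 in treated knockout and 0.06 in treated wild type cells. Over all genes tested it was -0.00447 and -0.00498. The value of MDM2 in knockout cells thus had the other sign from the median of its list. Of 14 genes of the TGF-beta receptors, SMADs and cytostatic targets, 0 rose and 3 fell in treated knockout cells, where CDKN2B fell. These were ID1 (-0.62 ± 0.08), ID3 (-0.62 ± 0.09) and ID2 (-0.57 ± 0.12), inhibitors of basic helix-loop-helix factors that are known for proliferating cells. In treated wild type cells 1 gene of this list rose, TGFBR1 (0.48 ± 0.14), and 2 fell, SMAD3 (-0.22 ± 0.08) and SMAD6 (-0.23 ± 0.08). TGFBR1 was called in 12 of 15 alternatives, not without untreated wild type replicate 3, where 0 genes of the list rose, and SMAD3 and SMAD6 were called in 8 and 7. Between the genotypes 9 of this list were higher and 4 lower in knockout cells with hormone, and 6 higher and 3 lower without it (medians 0.33 and 0.18). Without hormone ID1 (1.69 ± 0.09) was higher in knockout cells. Of 12 genes of ubiquitin ligases that act on G1 regulators, 5 were higher and 3 lower in knockout cells with hormone, and 6 higher and 3 lower without it (medians 0.02 and 0.12). These were 66.7% and 75% of the 12, near the 75.9% and 69.7% of all genes that passed. CKS1B and SKP2, parts of the ligase that marks p27 for degradation, were higher in knockout cells (with hormone 1.43 ± 0.10 and 0.67 ± 0.08, without it 1.22 ± 0.10 and 0.44 ± 0.08). DTL, an adaptor of the ligase that marks p21 and CDT1, rose in treated knockout cells (0.35 ± 0.08, adjusted p = 0.0332, edgeR), a call lost when any 1 library of that comparison was left out, and fell in treated wild type cells (-0.48 ± 0.08, adjusted p = 0.000673).

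Genes of mitosis gave the level of proliferation markers beside the G1 genes. Of 10, 8 were higher and 0 lower in knockout cells with hormone, and 9 higher and 0 lower without it, with median log2 fold changes of 0.73 and 0.82. CDK1, the mitotic kinase (1.70 ± 0.09 with hormone and 1.24 ± 0.08 without it) and AURKA (1.08 ± 0.07 and 1.03 ± 0.07) were among them, so these genes were higher in the cells with less CCND1, MYC and CDK6 RNA. With hormone in wild type cells PLK1 rose (0.42 ± 0.08) and CCNB2 (-0.59 ± 0.10), CDK1 (-0.49 ± 0.08) and BUB1 (-0.34 ± 0.12) fell. PLK1, CCNB2 and CDK1 were called in all 15 alternatives and BUB1 in 6, not with library size alone, in limma or without untreated wild type replicate 3. In treated knockout cells 0 of the 10 passed the main test, and over 15 alternatives 0 to 1 rose and 0 to 1 fell. The keratinocyte markers moved with the genotype too, with 6 of 8 lower and 1 higher in treated and 7 of 8 lower and 1 higher in untreated knockout cells, with median log2 fold changes of -1.98 and -1.64. In treated knockout cells, where CDKN1A and CDKN2B fell, 3 of these 8 fell as well, KRT14 (-0.87 ± 0.10), KRT6A (-0.68 ± 0.10) and KRT5 (-0.48 ± 0.12), of which KRT5 was not called when any of 5 of the 6 libraries was left out, all but untreated replicate 3. In treated wild type cells, where CDKN1A fell and E2F1 rose, DSG3 rose (0.33 ± 0.09) and TP63 fell (-0.53 ± 0.11), and 4 of the 8 fell without untreated replicate 3. Of the 4 endothelial, immune, fibroblast and melanocyte markers measured, CDH5 (0.82 ± 0.21) and CD68 (0.58 ± 0.16) were higher in treated wild type cells, CD68 not without untreated replicate 3. The part of these shifts in the values of the 10 genes was not tested.

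**Figure D5:**
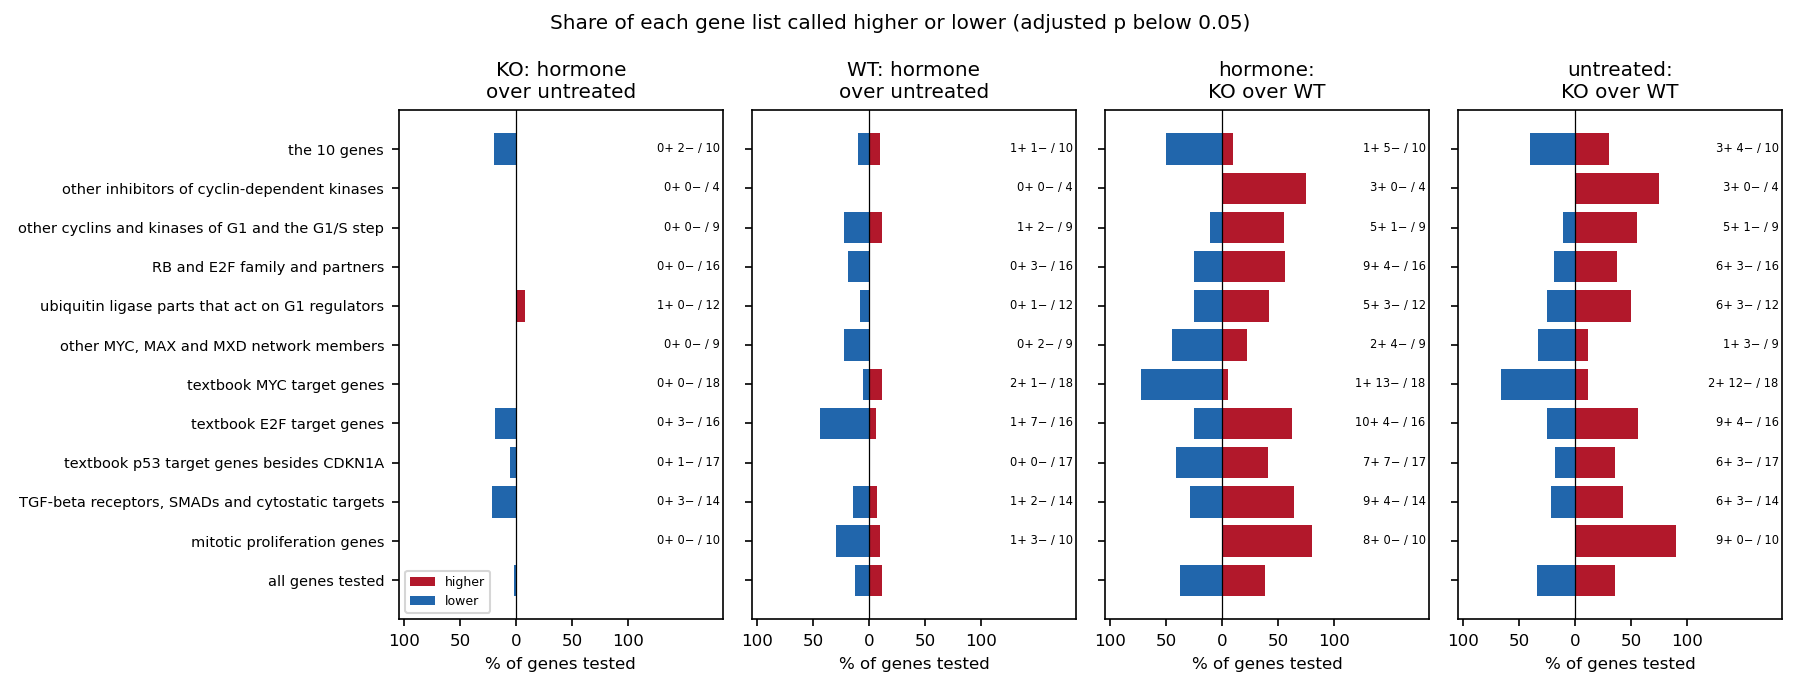
Share of the tested genes of each list, in percent, with adjusted p below 0.05, drawn to the right where higher and to the left where lower, in panels for hormone in KO, hormone in WT, KO over WT with hormone and KO over WT untreated, with counts of higher (+), lower (−) and tested genes at the right of each row. MYC targets are mostly lower in knockout cells (13 and 12 of 18) and mitotic genes mostly higher (8 and 9 of 10), while the bottom row gives all genes tested.

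The gene most like each of the 10 was taken as that with the highest Pearson's r over the 12 libraries, which fall into 4 groups, so the values describe these libraries only. It was KRT15 for CDKN1A (r of 0.944), ATP5A1 for CDKN1B (0.968), TCF19 for CDKN2B (0.978), CNN2 for CCND1 (0.999), UROD for CCND3 (0.920), SLC39A11 for CDK6 (0.989), FSCN1 for MYC (0.995), BIRC2 for MXD1 (0.994) and CRKL for E2F1 (0.978). CDK4 had the lowest such value, 0.898, with RP4-725G10.3. These values are over libraries that share groups and scaling.

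In the authors' deposited table of gene ontology terms for genes lower in treated knockout cells, CDKN1A was listed in 20 terms, 19 of them with an adjusted p below 0.05, and CDKN2B in 9 terms, 8 below it. Both were in negative regulation of cell proliferation (31 of 306 listed genes, adjusted p = 0.00155 in the authors' deposited table) and in negative regulation of mitotic cell cycle (18 of 306, adjusted p = 0.0232 in the authors' deposited table). For genes lower in treated wild type cells, the authors' deposited table listed CDKN1A in 8 terms, 5 below 0.05, among them G1/S transition of mitotic cell cycle (33 of 840 genes, adjusted p = 0.0443). For untreated knockout against untreated wild type cells, the authors' deposited table of lower genes listed CDKN1A in 10 terms and CDK6 in 9, all below 0.05. It listed MYC in 9 terms, 7 below 0.05, and CCND1 in 5, 3 below it. The terms of CCND1 included response to vitamin (31 of 3405 genes, adjusted p = 0.0339 in the authors' deposited table). The authors' table of higher genes listed CDKN1B in 6 terms, 4 below 0.05, and CDKN2B in 3, 2 below it. With hormone, the authors' deposited table of genes lower in knockout cells listed CDK6 in 9 terms, 4 below 0.05, and CDKN1A in 8, 4 below it. It listed MYC in 6 terms, 3 below 0.05, and E2F1 in 6, 3 below it. CCND1 was in 2 terms there, 0 below 0.05, with response to vitamin at adjusted p = 0.0782 in the authors' deposited table.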

How the data were processed

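Libraries of total RNA (12, with 3 in each of 4 groups) were grouped by their labels. The authors' deposited tables hold raw counts per gene and CPM, each count scaled to the total of its library (to within 0.005). Gene ontology tables of the authors were also deposited, and give each term's p-value before and after adjustment, per the file headers. BWA 0.5.9 and mm9 are the aligner and build named per the submitters' processing notes. The IDs are of human genes although mm9 is mouse, and no source used here names the counting tool, annotation or strand setting. Genes were placed by ID on GRCh38 with GENCODE v29.

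The main test was edgeR 4.0.16 (R 4.3.3) on the deposited counts: TMM factors of 0.95 to 1.057, filterByExpr (14676 genes kept, 1595 set aside), and robust quasi-likelihood F tests in 1 model of all 12 libraries, with Benjamini-Hochberg adjustment and a threshold of 0.05. It was tested on simulated counts for the hormone response in wild type cells alone. There all groups were drawn from the untreated wild type means, apart from genes changed in treated wild type cells. The genotype comparisons and the difference of responses were not tested in that way. Printed CPM are TMM-scaled. An SE is the size of the log2 fold change over the root of F, and 95% intervals take the estimate as normal. Separate cultures are not named in the labels, so p-values reflect only spread among these libraries, which may be technical. The 10 genes, the gene lists and the tests were chosen with earlier results of these data known. The text names all 10 genes, from each list and comparison the called genes with the smallest adjusted p (at most 4), the most alike gene, VDR and CYP24A1. The result of 1 listed gene is not reported here. Alternatives were DESeq2 1.42.0, limma 3.58.1 on log2 of the deposited CPM, other scalings and filters, a fit of the compared groups only, a replicate block and each library left out. Gene list counts under these settings were added after seeing the data.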

Additional observations from a re-analysis of the deposited data

Results flagged for a closer look

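For 3 of the 10 genes the response to hormone differed between the genotypes by a test of the difference itself (edgeR quasi-likelihood with Benjamini-Hochberg adjustment), where 26.3% of all genes tested did so. CDKN1B differed by log2 -0.48 ± 0.15 (SE, adjusted p = 0.0246), with responses of -0.27 in VDR knockout and 0.21 in wild type cells. CDK6 differed by 0.34 ± 0.10 (adjusted p = 0.0165), with 0.15 in knockout and -0.18 in wild type cells. E2F1 differed by -0.49 ± 0.12 (adjusted p = 0.00662), with -0.11 in knockout and 0.38 in wild type cells.

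Among the listed partners and targets, the gene of each list with the smallest adjusted p in this test was taken. CDK7 differed by 0.92 ± 0.15 (knockout 0.29, wild type -0.63), LIN9 by 0.86 ± 0.15 (0.38 and -0.48) and DTL by 0.83 ± 0.11 (0.35 and -0.48). MAX differed by 0.53 ± 0.10 (knockout 0.19, wild type -0.34) and POLA1 by 0.69 ± 0.11 (0.27 and -0.42). TP53INP1 differed by -1.52 ± 0.33 (knockout -0.98, wild type 0.54), ID1 by -0.59 ± 0.12 (-0.62 and -0.03) and PLK1 by -0.67 ± 0.11 (-0.25 and 0.42). The adjusted p of these 8 genes ranged from 0.000172 for DTL to 0.00379 for TP53INP1 (edgeR).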

How the results depend on the processing

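Of the fold changes of the 10 genes, 336 kept direction and call when a library was left out. There 9 turned sign, 12 lost their call and 3 gained one. Under other settings 416 kept direction and call, 6 turned sign, 4 lost their call and 14 gained one. Changes of the number of genes called are given here with the cause not tested. In knockout cells with hormone, where 374 of all genes were called, DESeq2 called 911, the compared groups alone 1776 and the replicate block 143, and leaving out a library gave 9 to 278, fewest without treated replicate 2. Of the 10 genes, 5 fell there in the compared groups alone, 1 with the replicate block, and 0 to 2 with a library left out. In wild type cells with hormone 3602 genes were called, 2218 in the compared groups alone and 2112 to 3763 with a library left out, and of the 10 genes 2 fell in DESeq2 and 1 to 4 with a library left out, 4 without untreated replicate 3. Between treated genotypes, 3 of the 10 were higher with library size alone and in limma with either pseudocount, and 2 in the compared groups alone. For the difference of responses, leaving out a library gave 0 to 1 higher and 1 to 2 lower.

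The sign turned for values near 0 that were not called. Between untreated genotypes these were CDK4 (0.0735 with library size alone, 0.0756 and 0.0761 in limma with a pseudocount of 1 and 0.5) and E2F1 (0.0851, 0.0869 and 0.0874). With a library left out, CDK4 ranged there from -0.132 to 0.00632 and E2F1 from -0.135 to 0.0126, the wild type response of MXD1 from -0.123 to 0.0403, and the difference of responses from -0.122 to 0.112 for CCND1 and from -0.220 to 0.0221 for MYC, each highest without untreated wild type replicate 3, or replicate 2 for CDK4 and E2F1. Library size alone moved the median of all genes to 0.13 in both genotype comparisons, against 0.02 with hormone and 0.01 without it with TMM, raised the share of calls that were higher in untreated knockout cells to 60.4% against 50.9%, and lowered that of hormone calls in knockout cells to 20% against 35.8%.

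Same-numbered libraries share only a number in the labels. The correlation of their deviations was -0.05 to 0.02 between treated and untreated knockout cells (1 of 6 libraries best with their own number) and -0.18 to -0.13 in wild type cells (0 of 6). Between knockout and wild type cells it was -0.10 to -0.06 with hormone (0 of 6), and 0.02, 0.08 and 0.12 without it (5 of 6), a hint from the data, not the design. With the replicate block 3 of the 10 genes were higher and 4 lower between untreated genotypes, as without it. With the replicate block the fall of CDKN2B was not called (adjusted p = 0.0717).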
